A study of Homo sapiens with 6 samples.

Results

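The genes described here are 10 genes of the actin cytoskeleton, namely the actins ACTB and ACTG1, the tropomyosins TPM1, TPM2, TPM3 and TPM4, the myosin light chain MYL9, the transgelins TAGLN and TAGLN2, and the calponin CNN2. They were taken by symbol from the deposited expression tables, where all 10 were found among 20026 gene rows. The set was chosen by function and by the FPKM differences between these same libraries, so the values of the 10 genes are given as a description, with no p-value. RNA was sequenced from HCT116, a human colon carcinoma cell line, in 3 stable lines with 2 libraries each. One line served as control, and the others over-expressed TEAD4, either in its wild type form or as the mutant K178R, with an arginine in place of a lysine. TEAD4 is a DNA-binding transcription factor that recruits YAP1 and TAZ, the coactivators at the end of the Hippo pathway. The control libraries are titled PQ, a term the labels do not explain. The sources used here do not give which promoter drives TEAD4 or whether each line is a single clone. They also do not say whether both libraries of each line were grown as separate cultures, so p-values and standard errors here reflect library-to-library spread alone, possibly of technical origin. In bulk RNA, fewer cells expressing a gene and less RNA per cell cannot be told apart.

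Actin monomers assemble into filaments that give a cell its shape, and in cells outside muscle these filaments are built from the beta and gamma cytoplasmic actins. Tropomyosins are coiled-coil dimers that lie along the filament and control which other proteins reach it. Non-muscle myosin II pulls on the filaments when its regulatory light chains are phosphorylated, and transgelins and calponins bind along the filament. Many genes of this system are known targets of the transcription factor SRF, whose DNA site is called the CArG box, and of its actin-sensing cofactors MRTFA and MRTFB.

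On GRCh38, by GENCODE release 29, ACTB lies on chromosome 7 from 5527147 to 5563784 and ACTG1 on chromosome 17 from 81509971 to 81523847, both on the minus strand. TPM1 lies on chromosome 15 from 63042632 to 63071915 (plus), TPM2 on chromosome 9 from 35681992 to 35690121 (minus), TPM3 on chromosome 1 from 154155304 to 154194648 (minus) and TPM4 on chromosome 19 from 16067021 to 16103005 (plus). MYL9 lies on chromosome 20 from 36541484 to 36551447 (plus), TAGLN on chromosome 11 from 117199321 to 117204782 (plus), TAGLN2 on chromosome 1 from 159918107 to 159925732 (minus) and CNN2 on chromosome 19 from 1026581 to 1039068 (plus). The members of a family are thus spread over chromosomes, and the values below cover the exons of each gene as the authors counted them.

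The 2 cytoplasmic actins are near copies, and their first 45 coding bases are shown because reads must be told apart by such differences. Capitals mark the bases at which the sequences differ, 7 of the 45, in the transcripts of GENCODE release 29.
ACTB: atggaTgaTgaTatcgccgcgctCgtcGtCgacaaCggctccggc
ACTG1: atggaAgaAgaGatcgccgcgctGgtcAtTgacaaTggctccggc
Over their whole coding sequence of 1128 bases, ACTB and ACTG1 were identical at 91.2% of bases. Of the distinct windows of 50 bases in the coding transcripts of a gene, 6.66% for ACTB and 2.68% for ACTG1 occurred in a transcript of another gene, such as actin pseudogenes and, for ACTB, the POTE genes with an actin-like end. No such window was shared for TPM2 or MYL9. For TAGLN 13.2% were shared, all with PCSK7, which lies on the opposite strand and overlaps its exons, and for TPM1 30.5%, mostly with its antisense RNA TPM1-AS. For TPM4 24.2% were shared, for CNN2 10.4%, for TAGLN2 6.89% and for TPM3 5.53%. The sources used here do not give how the authors treated shared reads and strand, so the levels of these genes are uncertain. The shares count exact matches of 50 bases only and do not measure by how much.

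Promoter windows of 250 bases before to 50 after an annotated start, from RefSeq on GRCh38.p14, were found for 7 of the 10 genes, with 13 start sites in all. They are shown because genes of this set are known SRF targets. A CArG box was searched as its 10-base consensus, which reads alike on both strands, and occurred in 3 of the 13 windows, against 1.29% of all 35116 promoter windows. The window around each match follows, with the CArG box in capitals.
ACTG1 (chr17:81512854-81512923, minus strand): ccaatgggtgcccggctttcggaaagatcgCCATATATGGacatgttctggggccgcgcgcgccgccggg
TPM4 (chr19:16067335-16067404, plus strand): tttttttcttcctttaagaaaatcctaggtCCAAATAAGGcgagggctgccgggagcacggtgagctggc
CNN2 (chr19:1026489-1026558, plus strand): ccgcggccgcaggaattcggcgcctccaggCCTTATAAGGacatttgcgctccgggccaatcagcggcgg
The match ended 84 bases before the start of ACTG1, 163 before 1 of the 3 starts of TPM4, and 79 before the start of CNN2. The windows of TPM1, TPM2, TPM3 and TAGLN2 held no match, and no window was used for ACTB, MYL9 and TAGLN. GGAATG, the core of the site known for TEAD factors, was searched on both strands and occurred in 0 of the 13 windows, against 14% of all windows. A match is not a measured binding site, and its absence concerns only these letters in these windows.

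Values are FPKM, fragment counts adjusted for transcript length and sequencing depth. Mean values carry their SD over n = 2 libraries. Differences are on the log2(FPKM + 1) scale, with the standard error (SE) of a limma fit to all 6 libraries. The number of reads is unknown, and relative depths, read from the step of the lowest values, lay between 0.929 and 1.05 of that of the first control library. TEAD4 itself stood at 16.6 and 17.5 FPKM in the control libraries, 86.4 and 84.4 in the wild type libraries and 71.2 and 72.3 in the K178R libraries. The genotype field of the second wild type library names TEAD5, while its title names wild type TEAD4. The 5 epithelial markers examined were all above 1 FPKM in every line, with EPCAM at 146 to 153 FPKM over the 6 libraries. Their summed level was 2631 to 2677 FPKM in control, 1792 to 1846 with wild type TEAD4 and 2848 to 2881 with K178R. KRT8 and KRT18 made up most of that sum. They averaged 1298 and 691 FPKM in control, 770 and 457 in wild type, and 1381 and 890 in K178R. KRT19 averaged 502, 435 and 429 FPKM in the same order of lines, and CDH1 11.4, 10.6 and 13.1. Of 6 fibroblast markers, only COL1A1 passed 1 FPKM (control 1.62, wild type 3.63 and K178R 1.72), and COL1A2, DCN and LUM were listed at 0 in all libraries. Of 7 striated muscle markers, MYL2 alone passed 1 FPKM, in 1 library, and no endothelial or leukocyte marker did. Of 7 smooth muscle markers, only ACTA2 passed 1 FPKM in any library, while MYH11 and CNN1 stayed under 0.05 FPKM. DES, the next highest after ACTA2, averaged 0.436 FPKM in control, 0.708 with wild type TEAD4 and 0.317 with K178R. The summed level of the 7 was 0.895 to 1.41 FPKM in control, 2.81 to 3.16 with wild type TEAD4 and 1.06 to 1.23 with K178R. ACTA2, whose exons overlap those of FAS on the opposite strand, alone averaged 0.578, 2.15 and 0.711 FPKM in that order. The summed level of the 7 striated muscle markers was 1.04 to 1.23 FPKM in control, 0.607 to 0.681 in wild type and 0.661 to 0.681 in K178R. Of these, MYL2 averaged 0.834, 0.130 and 0.538 FPKM. The part of these levels in the results was not tested.

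**Figure D1:**
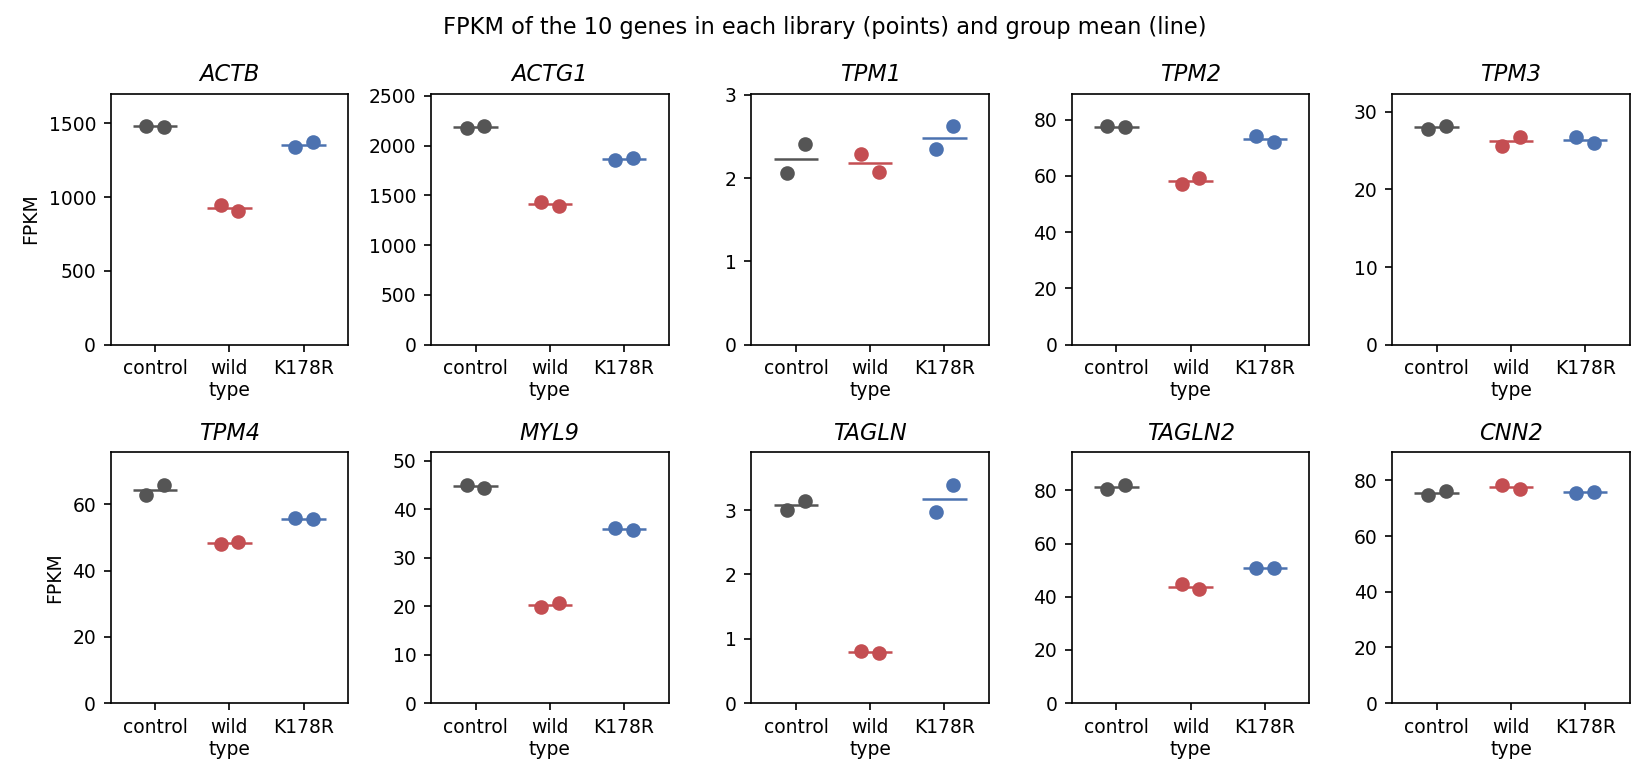
FPKM of each of the 10 genes in the 6 libraries, with 1 panel per gene, points for libraries, a line for the group mean and axes starting at 0. In 7 panels the wild type libraries lie below both other groups, and the K178R points of TAGLN span its control points.

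The cytoplasmic actins were the most abundant of the 10 genes, and both were lowest with wild type TEAD4. ACTB, which encodes beta-actin, read 1480.2 and 1478 FPKM in the control libraries, 946 and 909 in the wild type libraries, and 1337 and 1375 in the K178R libraries. The 3 groups did not overlap, and K178R lay nearer to control than to wild type. The mean was 1.59-fold lower in wild type than in control (log2 difference -0.67, SE 0.03) and 1.09-fold lower in K178R (log2 difference -0.13, SE 0.03). ACTG1, which encodes gamma-actin, read 2172 and 2194 FPKM in control, 1438 and 1393 in wild type, and 1856 and 1871 in K178R. Its groups were ordered in the same way and did not overlap. The mean was 1.54-fold lower in wild type (log2 difference -0.62, SE 0.02) and 1.17-fold lower in K178R (log2 difference -0.23, SE 0.02). Between the mutant and the wild type line, the means of K178R were 1.46-fold higher for ACTB and 1.32-fold higher for ACTG1. Both comparisons with control use the same control libraries.

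Together the 2 actins made up 1.24% and 1.25% of all FPKM in the control libraries, 0.781% and 0.764% in wild type, and 1.13% and 1.14% in K178R. ACTG1 ranked as gene 5 of 20026 in both control libraries, gene 16 in both wild type libraries and gene 6 in both K178R libraries. ACTB was 40.4% ± 0.204 of the pair's summed FPKM in control, 39.6% ± 0.140 with wild type TEAD4 and 42.1% ± 0.345 with K178R (SD, n = 2). The balance of the pair thus moved by under 3 percentage points while its sum went from 3662 ± 14.1 FPKM in control to 2343 ± 57.5 in wild type and 3219 ± 37.7 in K178R. POTEF, whose transcripts share windows with ACTB, was listed at 0.345 ± 0.0459 FPKM in control, against 0.112 ± 0.0386 with wild type TEAD4 and 0.369 ± 0.00898 with K178R. POTEE was at 0.152, 0.0659 and 0.172 FPKM in the same order. Whether these low values are misplaced ACTB reads was not tested.

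Among the tropomyosins, TPM2 and TPM4 were lower with wild type TEAD4, while TPM3 and TPM1 differed less. TPM2, the beta-tropomyosin gene, read 77.6 and 77.2 FPKM in control, 57.0 and 59.3 in wild type, and 74.2 and 71.9 in K178R. The wild type libraries lay well below the others, and the K178R libraries just below control. The log2 difference from control was -0.41 (SE 0.03) in wild type and -0.08 (SE 0.03) in K178R. TPM4, whose products are mainly non-muscle tropomyosin, read 62.8 and 65.9 FPKM in control, 48.0 and 48.6 in wild type, and 55.9 and 55.4 in K178R. Here K178R stood between the other lines, with log2 differences from control of -0.41 (SE 0.03) in wild type and -0.21 (SE 0.03) in K178R.

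TPM3, which encodes another non-muscle tropomyosin as well as a slow muscle form, read 27.8 and 28.1 FPKM in control, 25.6 and 26.8 in wild type, and 26.7 and 26.0 in K178R. Both TEAD4 lines were slightly below control, by log2 -0.09 (SE 0.03) and -0.08 (SE 0.03), and overlapped each other. The wild type difference of TPM3 was -0.18 after median-of-ratios scaling and -0.20 after upper-quartile scaling. TPM1, the alpha-tropomyosin gene, was the lowest of the family in each line, with 2.06 and 2.41 FPKM in control, 2.28 and 2.07 in wild type, and 2.34 and 2.62 in K178R. Its wild type libraries overlapped control (log2 difference -0.02, SE 0.08, a direction that turned in 2 of 14 alternatives), and so did its K178R libraries (log2 difference 0.11, SE 0.08). The summed FPKM of the 4 tropomyosin genes was 172 ± 2.38 in control, 135 ± 2.75 with wild type TEAD4 and 158 ± 2.25 with K178R. With TPM2 and TPM4 lower, TPM3 made up 19.4% ± 0.193 of the sum in wild type, against 16.3% ± 0.0939 in control and 16.7% ± 0.0947 in K178R. TPM2 held 45.03%, 43.1% and 46.4% of the sum in control, wild type and K178R, and TPM4 37.4%, 35.8% and 35.3%. Tropomyosin genes give several proteins from alternative starts and exons, and these gene totals do not separate them.

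**Figure D2:**
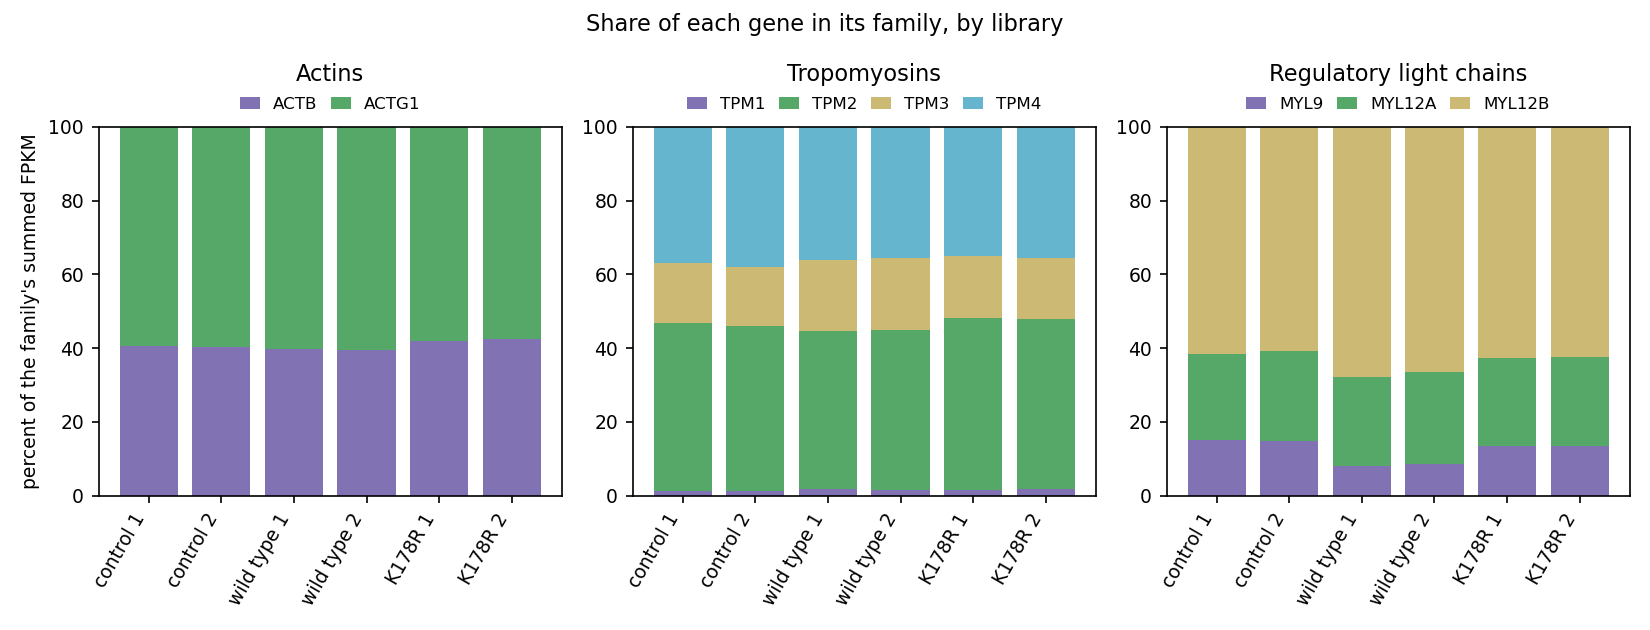
Percent of the family's summed FPKM held by each gene in the 6 libraries, as stacked bars, for the 2 cytoplasmic actins, the 4 tropomyosins and the 3 myosin regulatory light chains. The actin split stays near 40 to 60, the TPM3 band is widest in the wild type libraries (19.3% and 19.6%), and the MYL9 band is narrowest there (8.13% and 8.63%).

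MYL9, a regulatory light chain of myosin II in smooth muscle and non-muscle cells, showed the second largest difference of the set. It read 45.03 and 44.3 FPKM in control, 19.8 and 20.6 in wild type, and 36.0 and 35.7 in K178R. The groups did not overlap, and wild type was the lowest. The mean was 2.21-fold lower in wild type than in control (log2 difference -1.11, SE 0.03) and 1.25-fold lower in K178R (log2 difference -0.31, SE 0.03). K178R was 1.78-fold above wild type (log2 difference 0.80, SE 0.03). The related light chains MYL12A and MYL12B were tested as part of a wider list. MYL12B, whose coding sequence matches that of MYL9 at 80.5% of bases, fell in wild type from 183 ± 2.10 to 162 ± 4.91 FPKM (log2 -0.18, adjusted p = 0.00157). MYL12A fell from 71.8 ± 1.56 to 59.0 ± 0.913 FPKM (log2 -0.28, adjusted p = 2.8e-04). MYL9 therefore held 14.9% ± 0.113 of the FPKM of the 3 light chain genes in control, 8.38% ± 0.353 with wild type TEAD4 and 13.4% ± 0.0844 with K178R.

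The transgelins differed from each other in the mutant line. TAGLN, the transgelin known from smooth muscle, read 3.005 and 3.14 FPKM in control, 0.818 and 0.779 in wild type, and 2.97 and 3.39 in K178R. The wild type libraries lay far below all others, and the K178R libraries spanned the control values. Mean FPKM was 3.85-fold lower in wild type than in control, and 3.98-fold higher in K178R than in wild type. The log2 difference of wild type from control was -1.18 (SE 0.07), and -1.82 with a pseudocount of 0.1 in place of 1, since the gene is low. That of K178R was 0.04 (SE 0.07), and its direction turned in 1 of 13 alternatives. PCSK7, on the other strand, overlaps 11.4% of the exon bases of TAGLN. It stood at 5.54 FPKM in control, against 5.44 with wild type TEAD4 and 6.07 with K178R. TAGLN2, the widely expressed transgelin, read 80.5 and 82.1 FPKM in control, 44.8 and 42.8 in wild type, and 50.7 and 50.8 in K178R. Both TEAD4 lines were far below control, 1.86-fold in wild type (log2 difference -0.88, SE 0.03) and 1.60-fold in K178R (log2 difference -0.67, SE 0.03). It was the member with the largest difference between K178R and control.

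CNN2, a calponin found in smooth muscle and many other cells, was nearly level. It read 74.9 and 76.3 FPKM in control, 78.4 and 76.8 in wild type, and 75.5 and 75.8 in K178R. Wild type lay above control by 2.66% of the mean (log2 difference 0.04, SE 0.03), and the direction turned under median-of-ratios scaling (log2 difference -0.05) and upper-quartile scaling (log2 difference -0.07). K178R overlapped control (log2 difference 0.00, SE 0.03). CNN2 carries the CArG box printed above, as do ACTG1 and TPM4, which were lower in both TEAD4 lines. A part of the box in these levels was not tested, and no window was used for ACTB, MYL9 and TAGLN.

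**Figure D3:**
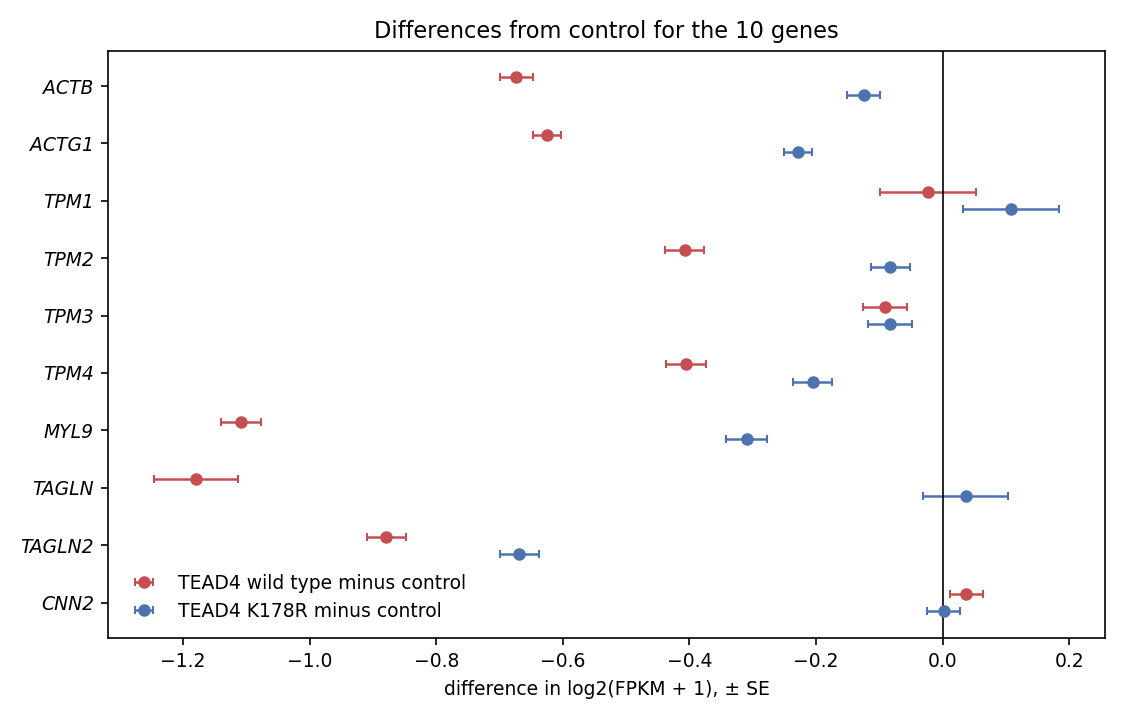
Difference from control in log2(FPKM + 1) for the 10 genes, with red points for wild type TEAD4, blue points for K178R and bars for the SE of the limma fit. Points left of 0 are lower than in control. TAGLN and MYL9 lie farthest left in wild type (-1.18 and -1.11) and TAGLN2 in K178R (-0.67).

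All 10 genes passed the filter on low values. Under the call rule for all genes (adjusted p under 0.05), 7 of the 10 were lower in wild type than control and 0 higher. Among the 11445 genes tested, 12.2% were lower and 37.6% higher. The 7 became 8, with TPM3 added, under either scaling. In K178R, 5 of the 10 were lower than control and 0 higher, where 11.1% of genes tested were lower and 11.7% higher. The 5 became 4, with ACTB no longer counted, without either control library, without K178R replicate 1, with the control libraries averaged or with no filter. Between the lines, 7 of the 10 were higher in K178R than in wild type and 0 lower. Here 10.4% of genes tested were higher and 34.5% lower. The choice of the genes used these comparisons, so the counts describe the set only. The median log2 difference of all genes tested in wild type against control was 0.09 as deposited, 0.02 after median-of-ratios scaling and 0.00 after upper-quartile scaling, while that of ACTB was -0.67, -0.77 and -0.78 and that of MYL9 -1.11, -1.20 and -1.21. The 7 were ACTB, ACTG1, TPM2, TPM4, MYL9, TAGLN and TAGLN2 in both comparisons that involve wild type. The wild type libraries were all below control for 8 genes, these 7 and TPM3, where 21.9% of genes tested had that pattern, and all above control for CNN2 alone, where 54.9% did. The K178R libraries were all below control for 7 genes, where the share of genes tested was 30.3%, and all above it for 0 genes, against 32.7%. They were all above wild type for 8 genes, the 7 and TPM1, against 21.5% of genes tested, and all below it for CNN2, against 52.7%.

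The order of the levels differed between the lines. In control it ran from ACTG1 and ACTB down through TAGLN2, TPM2, CNN2, TPM4, MYL9, TPM3 and TAGLN to TPM1. In wild type, CNN2 took place 3 and TAGLN2 place 6, TPM3 stood above MYL9, and TAGLN was last, below TPM1. In K178R, CNN2 took place 3 and TAGLN2 place 6 as well, while MYL9 remained above TPM3 and TAGLN above TPM1. In each line, the libraries of neighbours in the order did not overlap. TPM2 and CNN2 were close neighbours in control, at 77.2 and 76.3 FPKM in their nearest libraries.

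The genes whose pattern over the 6 libraries was most like that of TAGLN and MYL9, the members with the widest range of group means, were found by the root mean square difference of log2(FPKM + 1) after centring each gene. For TAGLN the nearest was MYL9 (0.19), followed by the keratin gene KRT8 (0.20), the zinc finger gene ZBTB20 (0.20), the histone gene HIST1H2BO (0.22) and the keratin gene KRT18 (0.24). KRT8 and KRT18 encode the partner keratins of simple epithelia. KRT8 stood at 1298 FPKM in control, against 770 with wild type TEAD4 and 1381 with K178R. For MYL9 the nearest was the kinase gene STK39 (0.11), followed by the splicing factor HNRNPH1 (0.15), GALNT5 (0.15), GDA (0.16) and the keratin gene KRT80 (0.17). STK39 stood at 8.09, 3.97 and 6.52 FPKM in that order. This scale compresses differences at low FPKM, and the search was run with the pseudocount of 1 alone. For TAGLN, mean FPKM was 3.85-fold lower in wild type than in control, against 2.21-fold for MYL9. The choice of TAGLN and MYL9 used differences between these same libraries, so their likeness was set in part by that choice.

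To set the 10 genes beside the rest of their pathway, 142 other genes of the actin cytoskeleton were listed by role, and 128 passed the filter and were tested. In wild type, 50 rose and 22 fell against control, with a median log2 difference of 0.05, where 37.6% of all genes tested rose, 12.2% fell and the median was 0.09. Median-of-ratios scaling turned this split to 30 rises and 40 falls. In K178R, 21 rose and 30 fell against control, with a median of -0.01, where 11.7% of all genes rose and 11.1% fell and the median was 0.00. The 21 became 13 without control replicate 1. Between K178R and wild type, 15 were higher and 46 lower in K178R, with a median of -0.07, where 10.4% of all genes were higher and 34.5% lower and the median was -0.08. That split was 24 and 24 after median-of-ratios scaling. The median over the 10 genes was -0.52, -0.10 and 0.27 in these comparisons, but the choice of the 10 genes used these same differences. Their distance from the list was thus set in part by that choice and is description only.

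**Figure D4:**
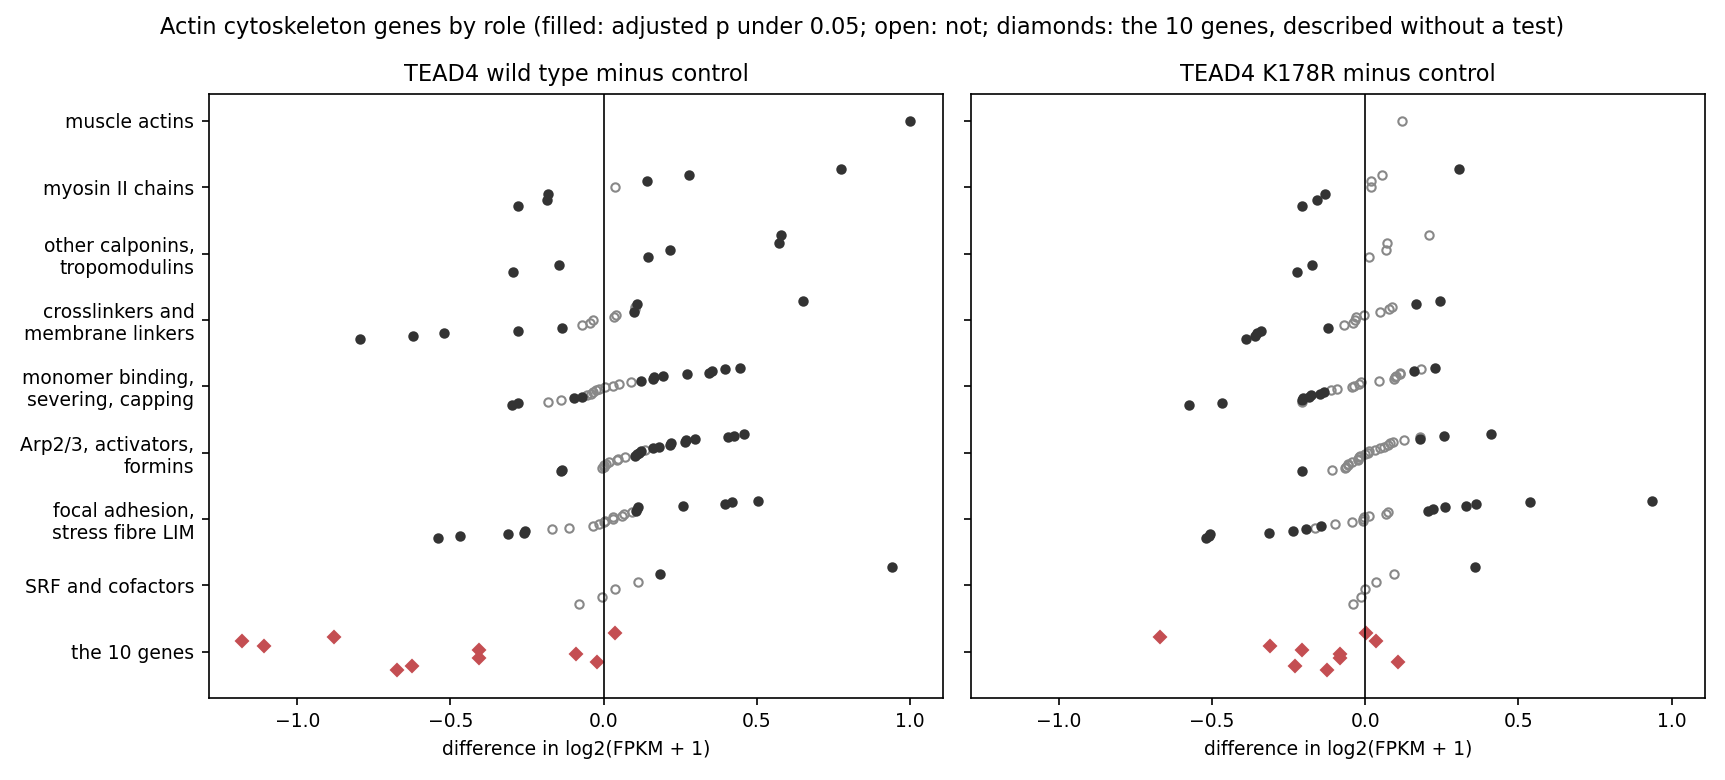
Difference from control in log2(FPKM + 1) for 107 of the 128 tested genes of the actin cytoskeleton in 8 roles, in wild type (left) and K178R (right), as filled points for an adjusted p under 0.05 and open points otherwise. Red diamonds at the bottom are the 10 genes described here, which were chosen with such differences known. The list genes spread to both sides of 0, with ACTA2 (1.00) and FLNA (-0.79) at the ends in wild type and LIMA1 (0.94) and CAPG (-0.57) in K178R.

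Of the muscle actins, only ACTA2 passed the filter. ACTA2, the smooth muscle alpha-actin, rose in wild type from 0.578 ± 0.160 to 2.15 ± 0.239 FPKM (log2 1.00, SE 0.09, adjusted p = 1.7e-04), while it stood at 0.711 ± 0.0216 in K178R (log2 0.12, adjusted p = 0.377). K178R lay below wild type (log2 -0.88, adjusted p = 4.2e-04). Its exons overlap those of FAS on the opposite strand by 12.8%, and FAS went from 1.64 FPKM in control to 4.47 in wild type and 2.80 in K178R. Without known strand, reads of the 2 genes cannot be told apart there. ACTA1, ACTC1 and ACTG2 did not reach the filter, and ACTG2 was at most 0.0756 FPKM in any library.

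Of 7 tested myosin II heavy and light chain genes, 3 rose and 3 fell in wild type, against 37.6% and 12.2% of all genes. In K178R 1 rose and 3 fell, against 11.7% and 11.1%. Without control replicate 2, 1 fell in K178R. The heavy chain MYH14 rose from 6.79 ± 0.173 to 12.4 ± 0.780 FPKM in wild type (log2 0.78, SE 0.05, adjusted p = 5.2e-05) and to 8.64 ± 0.140 in K178R (log2 0.31, adjusted p = 0.00571). MYH9, the heavy chain with the highest level here, fell in wild type from 54.4 ± 0.957 to 47.8 ± 0.0380 FPKM (log2 -0.18, adjusted p = 0.00168) and stood at 55.2 in K178R (log2 0.02, adjusted p = 0.671). MYH10 rose slightly in wild type (log2 0.14, adjusted p = 0.0306), a call that ended without any 1 of the 4 libraries compared, with the control libraries averaged and under both scalings. The essential light chain MYL6 fell in K178R from 293 ± 0.882 to 253 ± 11.8 FPKM (log2 -0.21, adjusted p = 0.00455) and was not called in wild type (log2 0.04, adjusted p = 0.372). In K178R, MYL12A fell (log2 -0.16, adjusted p = 0.0078), which ended without control replicate 2, and MYL12B fell (log2 -0.13, adjusted p = 0.0142), which ended without any 1 of the 4 libraries compared.

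Of 6 tested relatives of the thin filament proteins, 4 rose and 2 fell in wild type, or 2 and 2 under both scalings. Among all genes, 37.6% rose and 12.2% fell in wild type, and 11.7% and 11.1% in K178R. In K178R, 0 of the 6 rose and 2 fell. The latter count was 1 without any 1 of the 6 libraries. CNN3, the calponin next to CNN2 in level, fell in wild type from 21.7 ± 0.263 to 17.5 ± 0.0800 FPKM (log2 -0.30, adjusted p = 4.3e-04) and was not called in K178R (log2 0.07, adjusted p = 0.17). K178R was above wild type (log2 0.37, adjusted p = 2.7e-04). CNN1, the smooth muscle calponin, was at most 0.0462 FPKM. The tropomodulins cap the slow-growing end of filaments that carry tropomyosin. TMOD1 and TMOD2 rose in wild type (log2 0.58, adjusted p = 9.1e-04 and log2 0.57, adjusted p = 3.9e-04), from 0.696 and 1.06 FPKM. TMOD3, the most abundant of them at 37.4 ± 0.00318 FPKM in control, fell to 33.7 ± 0.256 in wild type (log2 -0.15, adjusted p = 0.00511) and 31.9 ± 0.583 in K178R (log2 -0.22, adjusted p = 0.00201). TMOD1 overlaps TSTD2 on the opposite strand by 45.01% of its exon bases. CALD1, the caldesmon gene, rose in wild type (log2 0.14, adjusted p = 0.0157), which ended under both scalings, with the control libraries averaged, and on leaving out control replicate 2 or wild type replicate 1.

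Of 16 tested crosslinkers and membrane linkers, 5 fell and 3 rose in wild type, against 12.2% and 37.6% of all genes. In K178R 5 fell and 3 rose, against 11.1% and 11.7%. Under both scalings 8 fell and 1 rose in wild type, and 1 rose without any 1 of the libraries except wild type replicate 2, without which 5 did. FLNA, which encodes filamin A and joins filaments into networks, fell from 104 ± 0.282 FPKM to 59.6 ± 1.501 in wild type (log2 -0.79, SE 0.03, adjusted p = 3.8e-06) and 79.1 ± 0.833 in K178R (log2 -0.39, SE 0.03, adjusted p = 1.1e-04). K178R lay above wild type (log2 0.40, adjusted p = 1.0e-04). PLS1, a plastin of microvilli, rose in wild type from 7.69 ± 0.332 to 12.7 ± 0.150 FPKM (log2 0.65, adjusted p = 6.6e-05) and K178R lay below wild type (log2 -0.48, adjusted p = 3.3e-04).

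Of 24 tested genes that bind monomers or sever and cap filaments, 9 rose and 4 fell in wild type. Among all genes tested, 37.6% rose and 12.2% fell. The 9 and 4 turned to 5 and 11 under both scalings. The 4 falls became 2 with the control libraries averaged. In K178R, 2 rose and 8 fell, against 11.7% and 11.1% of all genes. The 2 rises became 1 without either control library. The severing protein gene GSN, for gelsolin, rose most in wild type (log2 0.45, adjusted p = 0.00141), from 5.48 ± 0.274 to 7.82 ± 0.0504 FPKM. WDR1, a cofactor of cofilin, fell most in wild type (log2 -0.30, adjusted p = 0.00187). The capping protein gene CAPG fell in K178R from 24.9 ± 1.21 to 16.4 ± 0.560 FPKM (log2 -0.57, adjusted p = 1.8e-04) and was not called in wild type (log2 -0.04, adjusted p = 0.485). The profilin gene PFN2 rose in K178R (log2 0.23, adjusted p = 0.00108). TWF2, a twinfilin, stood at 33.3 FPKM in control, rose to 44.2 in wild type and fell to 28.8 in K178R, and differed between the TEAD4 lines (log2 -0.60, adjusted p = 2.6e-05). TWF2 shares 25.4% of its exon bases with another annotated gene on its own strand.

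Of 25 tested genes of the Arp2/3 complex, its activators and the formins, which start new filaments, 14 rose and 2 fell in wild type. That compares with 37.6% and 12.2% of all genes. In K178R 3 rose and 1 fell, against 11.7% and 11.1%. Under median-of-ratios scaling the wild type counts were 9 and 3, and they were 8 to 11 higher and 0 or 1 lower without any 1 of the control or wild type libraries. The formin gene FMNL2 led in wild type (log2 0.46, adjusted p = 5.6e-04), from 4.09 ± 0.228 to 5.98 ± 0.0437 FPKM, and the nucleator gene SPIRE1 in K178R (log2 0.41, adjusted p = 0.00253). SPIRE1 overlaps an antisense gene by 25.9% of its exon bases. DIAPH1, a formin, fell in wild type (log2 -0.14, adjusted p = 0.0108), a call that ended on leaving out control replicate 1 or wild type replicate 2. BRK1, a small subunit of the WAVE complex, rose in wild type and fell in K178R (log2 0.30, adjusted p = 3.9e-04 and log2 -0.21, adjusted p = 0.00451).

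Of 23 focal adhesion and stress fibre LIM genes, 6 rose and 5 fell in wild type, against 37.6% and 12.2% of all genes. With median-of-ratios scaling the wild type counts were 4 and 8. In K178R 7 rose and 7 fell, against 11.7% and 11.1%. LIMA1, which stabilises actin bundles, rose from 22.6 ± 0.348 FPKM to 32.4 ± 0.295 in wild type (log2 0.51, SE 0.03, adjusted p = 2.8e-05) and 44.1 ± 0.0510 in K178R (log2 0.94, SE 0.03, adjusted p = 2.3e-06). K178R lay above wild type (log2 0.43, adjusted p = 1.0e-04). PDLIM5, a scaffold on stress fibres, fell from 22.6 ± 0.576 FPKM to 15.2 ± 0.261 in wild type (log2 -0.54, adjusted p = 6.7e-05) and 15.6 ± 0.416 in K178R (log2 -0.51, adjusted p = 1.4e-04). PALLD, for palladin, fell from 29.9 ± 0.178 FPKM to 21.3 ± 0.00339 and 20.6 ± 0.257 (log2 -0.47, adjusted p = 5.0e-05 and log2 -0.52, adjusted p = 4.0e-05). Neither PDLIM5 nor PALLD passed the test between the TEAD4 lines (log2 0.03, SE 0.04 and log2 -0.05, SE 0.03). For ILK, K178R lay below wild type (log2 -0.49, adjusted p = 2.4e-04), and 68.1% of its exon bases overlap TAF10 on the opposite strand.

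Of 6 tested genes for SRF and its cofactors, 2 rose and 0 fell in wild type, against 37.6% and 12.2% of all genes. In K178R 1 rose and 0 fell, against 11.7% and 11.1%. The 2 became 1 without either control library or either K178R library. SRF read 15.03 and 15.9 FPKM in control, 15.3 and 15.6 in wild type, and 14.6 and 16.1 in K178R. All 3 groups overlapped, and SRF was not called in wild type (log2 -0.00, adjusted p = 0.956) or in K178R (log2 -0.01, adjusted p = 0.877). MRTFA, listed as MKL1, rose in wild type from 2.64 ± 0.0497 to 3.14 ± 0.263 FPKM (log2 0.18, adjusted p = 0.0408), which ended under 11 of the 14 alternatives tried. MRTFB, listed as MKL2, was not called in wild type (log2 -0.08, adjusted p = 0.292) or K178R (log2 -0.04, adjusted p = 0.688). The ternary complex factor ELK3, which binds DNA beside SRF, rose from 9.64 ± 0.126 FPKM to 19.4 ± 0.311 in wild type (log2 0.94, SE 0.04, adjusted p = 4.7e-06) and 12.6 ± 0.110 in K178R (log2 0.36, SE 0.04, adjusted p = 6.4e-04). The difference between the TEAD4 lines passed the test (log2 -0.58, adjusted p = 7.2e-05). RNA levels do not measure the activity of these factors.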

How the data were processed

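The authors deposited 1 table of FPKM values per library, per the file headers, with 20030 gene rows. The submitters' processing notes name Bowtie 0.12.2 and the build hg18, and the program behind FPKM is not given in the sources used here. Rows with repeated identifiers (4) were left out. Libraries were grouped by title. The 11445 genes reaching 0.5 FPKM in 2 or more libraries were transformed to log2(FPKM + 1) and fitted with limma 3.58.1 in R 4.3.3, with trend, group means for all 6 libraries and no added scaling. All 3 contrasts were two-sided, with Benjamini-Hochberg adjustment over all genes tested and a threshold of 0.05. The fit was also run on simulated data with independent noise and few changed genes. That setting does not test it under the many differences called here. The 10 genes and the lists were chosen with earlier results of these data known, the lists by textbook role. Named were the 10 genes, TEAD4, the largest rise and fall of each role list in each contrast among genes past the threshold, and a further fixed list (ACTA2, ACTG2, CNN1, CNN3, CALD1, MYH9, MYH10, MYL6, MYL12A, MYL12B, SRF, MRTFA, MRTFB). Genes overlapping or sharing sequence with these, with the POTE genes, were added after their values were seen. Alternatives changed the pseudocount, filter, scaling, libraries and replicate block. Positions and overlaps come from GENCODE release 29 on GRCh38, promoter windows from RefSeq. One role list and 1 gene that the naming rule covers are not reported here, though counts over the whole list include them.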

Additional observations from a re-analysis of the deposited data

How the results depend on the processing

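Across 14 alternatives per comparison, the directions of ACTB, ACTG1, TPM2, TPM4, MYL9 and TAGLN2 held in each of the 3 comparisons, and that of TAGLN in both that involve wild type, where it could not be tested with at least 1 FPKM required in all libraries. The directions of CNN2 in all 3 comparisons, TPM1 in wild type, TAGLN in K178R and TPM3 between the TEAD4 lines turned under some. Scaling moved the counts over all genes. In wild type against control, 4309 higher became 2765 after upper-quartile scaling, and 1402 lower became 2416 after median-of-ratios and 2652 after upper-quartile scaling. In the actin cytoskeleton list, 50 higher became 30 and 28, and 22 lower became 40 and 43. For K178R against wild type, 1187 higher became 2171 and 2263, 3952 lower became 2598 and 2520, and in the list 15 higher became 24 and 29 and 46 lower became 24 under both. For K178R against control, 1342 higher became 658 and 1268 lower 577 with the control libraries averaged, and ranged from 733 to 1285 and 633 to 1259 when 1 library was left out, the low ends without any 1 of the 4 libraries compared (733 to 797 and 633 to 741). The list's 21 higher ranged from 13 (without control replicate 1) to 20. The causes were not tested. Of the list's calls, 44 of 72 in wild type, 32 of 51 in K178R and 34 of 61 between the TEAD4 lines held in each alternative that tested the gene. Same-numbered libraries did not deviate together (correlations 0.015, -0.031 and 0.032), and the replicate block gave 4178 higher and 1334 lower in wild type, 1210 and 1154 in K178R, and 1119 and 3847 between the TEAD4 lines, with 7, 5 and 7 of the 10 genes called; 3 rises among crosslinkers became 1, 2 falls among the Arp2/3 and formin genes 1 and 2 rises among SRF and its cofactors 1 in wild type. The number of reads is unknown, so no counting interval is given.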
